A study of Rattus norvegicus with 7 samples.

Results

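Transcripts of 7 subunits of the GABA-A receptor (Gabra2, Gabra3, Gabra4, Gabra5, Gabrb1, Gabrb2 and Gabrd) were examined in hippocampus and hypothalamus of rats on a diet with DHA, the omega-3 fatty acid docosahexaenoic acid. The subunits were picked out of the tables by gene symbol. All 7 were found among the 15805 symbols present in both tables. Libraries came from male Sprague Dawley rats that were 2 months old when they were assigned to the diet and had received it for 6 weeks. DHA hippocampus had 4 libraries and DHA hypothalamus had 3. Every library was thus from a DHA-fed animal, chow-fed animals were not analysed here, and no effect of the diet was estimated. The labels do not say whether the replicates, or libraries of the tissues that share a number, came from separate animals, so the spread given here is that between libraries.

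GABA-A receptors are chloride channels opened by gamma-aminobutyric acid (GABA), the main inhibitory transmitter of the adult brain. Each receptor is a ring of subunits, as a rule alpha and beta subunits together with a gamma or a delta subunit. The alpha subunit largely sets where the receptor sits and which drugs act on it. Many, though not all, receptors with gamma subunits mediate fast synaptic inhibition. Receptors with the delta subunit lie outside synapses, respond to low ambient GABA and are sensitive to neurosteroids. In hippocampus, the alpha5 subunit is known for tonic inhibition of pyramidal cells, and the alpha4 and delta subunits for tonic inhibition of dentate granule cells.

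Levels are given as FPKM (fragments per kilobase of transcript, scaled for library size), which correct for transcript length and so allow levels of different genes to be set side by side. Sums of the deposited FPKM ran from 370020 to 391349 over hippocampus libraries and from 443335 to 471484 over hypothalamus libraries, and the sequencing depth was unknown. All 12 hypothalamic marker genes examined were higher in every hypothalamus library, and Oxt and Otp were listed at 0 in all 4 hippocampus libraries. Of 4 hippocampal markers that could be compared, Neurod6, Wfs1 and Prox1 were higher in every hippocampus library, and C1ql2 overlapped between tissues. Spink8 was under the level needed to compare it and Zbtb20 was not compared. In bulk tissue, fewer cells of a type and less RNA per cell cannot be told apart. Here and in what follows, a gene was called higher in a tissue when its rescaled values did not overlap between tissues and differed by at least 2-fold, which held for 14.5% of compared symbols toward hippocampus and 13.4% toward hypothalamus. Of 5 striatal markers, 2 were called higher in hypothalamus. Of 5 thalamic markers, 3 were (Tcf7l2, Lef1 and Gbx2, at −1.31, −1.11 and −2.11 on the log2 scale). Of 4 cortical markers, 2 were called higher in hippocampus, where summed cortical markers read 24.2 to 41.4 FPKM. Of 4 genes listed for cerebellar granule cells, not all of them particular to these cells, Cbln3 and Fat2 were under the level needed for comparison. They read no more than 0.0847 and 0.437 FPKM. Neurod1, which dentate granule cells also express, read 7.30 to 9.57 FPKM in hippocampus and was called higher there, and Barhl2 read 1.96 to 3.56 FPKM in hypothalamus and was called higher there. Summed choroid plexus markers read 4765, 35.01, 5999 and 2095 FPKM in hippocampus replicates 1 to 4 and 44.1 to 76.6 FPKM in hypothalamus. Most of the hippocampal sums was Ttr, at 4651, 31.9, 5771 and 1967 FPKM. Folr1, not listed in hippocampus, entered the hypothalamus sums only, at 5.98 to 9.53 FPKM. Summed meningeal markers were highest in hippocampus replicate 3, at 275 FPKM, where 4 of 5 markers were highest. In hypothalamus they were highest in replicate 2, at 428 FPKM, where all 5 markers were. The part of these tissues in the subunit levels was not tested.

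Promoter windows are shown first, since the subunits differed in them. RefSeq windows of the rat assembly GRCr8 were found for 6 of the 7 genes, all but Gabra2, and the 250 bases before the annotated start were read. These windows fell into separate kinds. Gabra4, Gabra5 and Gabrd held 33, 37 and 35 CpG dinucleotides, more than 96.4%, 98.1% and 97.4% of all 33469 windows, whose median was 5. Gabrb1 and Gabrb2 held 8 each, and Gabra3 held 0.

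The windows of Gabrb1 and Gabrb2 each contained the palindrome GCGCATGCGC, which matches the sequence known to be recognized by the transcription factor NRF-1. The palindrome was picked as the longest one in the longest stretch these windows share, so its presence in both was fixed by that choice. It was present in 0.762% of all windows and in none of the other 4 windows of the examined subunits. In capitals below are its 10 bases, which began 29 bases before the start of Gabrb1 and 95 bases before that of Gabrb2.
Gabrb1, chr14:36902894-36902952, minus strand: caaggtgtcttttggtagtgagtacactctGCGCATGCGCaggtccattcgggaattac
Gabrb2, chr10:27439668-27439737, plus strand: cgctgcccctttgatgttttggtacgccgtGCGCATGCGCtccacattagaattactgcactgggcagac
The only stretch of 9 or more bases that both windows shared was TGCGCATGCGC, the palindrome and the base before it. The genes lie on different chromosomes.

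The windows of Gabra4, Gabra5 and Gabrd contained the GC box GGGCGG on one strand or the other, a motif present in 30.5% of all windows. Gabrd had 4 such matches, 3 of them overlapping, and Gabra4 and Gabra5 had 1 each. Capitals mark the matches, read as CCGCCC where they lie on the opposite strand.
Gabrd, chr5:171252715-171252871, minus strand: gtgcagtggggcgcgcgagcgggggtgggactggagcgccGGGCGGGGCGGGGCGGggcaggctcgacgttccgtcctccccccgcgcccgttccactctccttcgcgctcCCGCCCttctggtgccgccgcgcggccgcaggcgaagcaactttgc
Gabra4, chr14:36944584-36944669, plus strand: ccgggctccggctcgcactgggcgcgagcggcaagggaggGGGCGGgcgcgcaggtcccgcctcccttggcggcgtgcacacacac
Gabra5, chr1:117516705-117516790, minus strand: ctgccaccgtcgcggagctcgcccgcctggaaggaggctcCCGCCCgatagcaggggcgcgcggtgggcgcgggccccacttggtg
The window of Gabra3 instead held 1 match to TATAAA, found on either strand in 12.9% of windows. None of the 6 windows held TGACGTCA, the cyclic AMP response element, which occurred in 1.59% of windows. Such matches describe the letters of these windows, and no binding was measured.

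Gabra5 and Gabra2 led the hippocampal libraries. Gabra5, whose subunit is enriched in hippocampus relative to most of the brain, read 59.8, 73.2, 59.2 and 104 FPKM in replicates 1 to 4 of hippocampus and 74.2 ± 21.2 on average (SD, n = 4). Gabra2, whose subunit is found at synapses and at the axon initial segment of pyramidal cells, read 43.6, 64.2, 55.1 and 79.9 FPKM, a mean of 60.7 ± 15.3 (SD, n = 4). Gabra5 lay above Gabra2 in each of the 4 libraries, although their ranges over libraries overlapped. Every value of Gabra2 exceeded every value of Gabrb2, the next gene in order.

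The remaining subunits lay closer together in hippocampus. Gabrb2, a beta subunit widespread in the brain, read 20.4, 25.8, 23.6 and 32.5 FPKM, a mean of 25.6 ± 5.1 (SD, n = 4). Gabra4 read 17.5, 22.7, 18.3 and 29.7 FPKM, a mean of 22.0 ± 5.59 (SD, n = 4). Both were lowest in replicate 1 and highest in replicate 4.
Gabra3, an alpha subunit known from monoaminergic and reticular thalamic neurons, read 14.4, 17.02, 17.8 and 22.5 FPKM, a mean of 17.9 ± 3.4 (SD, n = 4). Gabrd, which encodes the delta subunit, read 15.7, 17.5, 15.8 and 13.6 FPKM, a mean of 15.7 ± 1.63 (SD, n = 4). Gabrb1, another beta subunit, read 14.2, 16.4, 12.1 and 14.6 FPKM, a mean of 14.3 ± 1.77 (SD, n = 4). From Gabrb2 down to Gabrb1, the ranges of neighbours in this order overlapped. Compared within libraries, Gabrb2 lay above Gabra4, and Gabra4 above Gabra3, in 4 of 4 libraries. Gabra3 lay above Gabrd in 2 of 4, and Gabrd above Gabrb1 in 3 of 4.

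In hypothalamus Gabra5 again had the highest mean among single loci, at 40.5, 34.9 and 39.2 FPKM in replicates 1 to 3 and 38.2 ± 2.93 on average (SD, n = 3). Its values lay above all those of Gabra3, the next by mean, which read 25.2, 21.9 and 24.3 FPKM, a mean of 23.8 ± 1.7 (SD, n = 3). Gabrb1 read 27.9, 19.2 and 19.5 FPKM, a mean of 22.2 ± 4.93 (SD, n = 3). Gabra2 followed with 26.2, 17.3 and 17.03 FPKM, a mean of 20.2 ± 5.22 (SD, n = 3). Gabra4 read 20.8, 10.3 and 11.4 FPKM, a mean of 14.2 ± 5.77 (SD, n = 3). Ranges of neighbouring genes from Gabra3 down to Gabra4 overlapped. Within libraries, Gabra3 lay above Gabrb1 in 2 of 3, whereas Gabrb1 lay above Gabra2, and Gabra2 above Gabra4, in 3 of 3.
Gabrd was the lowest of the 7, at 3.18, 0.464 and 0.761 FPKM in replicates 1 to 3, a mean of 1.47 ± 1.49 (SD, n = 3). No value of it reached the lowest value of Gabra4.

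**Figure D1:**
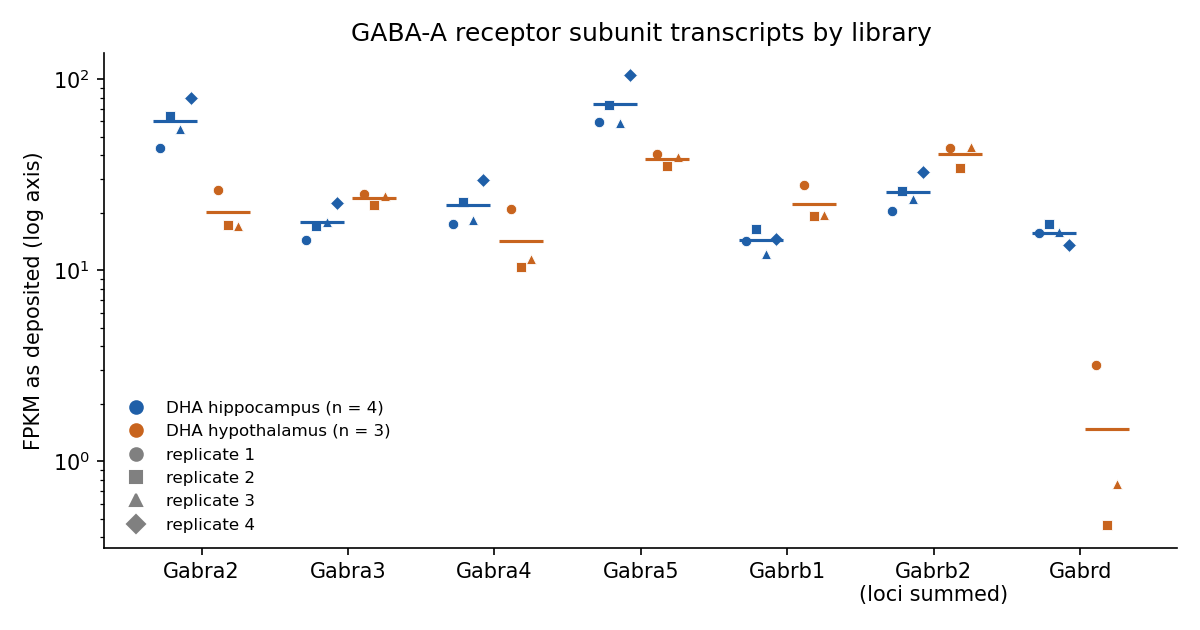
FPKM as deposited (log axis) of the 7 subunit genes in each library, blue for DHA hippocampus (n = 4) and orange for DHA hypothalamus (n = 3), with symbols for the replicate and horizontal lines for tissue means. Gabrd is at 13.6 to 17.5 FPKM in hippocampus and 0.464 to 3.18 FPKM in hypothalamus, and Gabrb2 is drawn as the sum of its loci.

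Gabrb2 had 1 locus in the hippocampal table and 2 in the hypothalamic table, and the split between them differed by library. The locus with the higher mean, XLOC_004881, read 0, 27.2 and 37.0 FPKM in hypothalamus replicates 1 to 3. The other, XLOC_003967, read 43.6, 7.29 and 7.31 FPKM. The sums of both were 43.6, 34.5 and 44.3 FPKM, a mean of 40.8 ± 5.49 (SD, n = 3), in place of 21.4 ± 19.2 for the first locus alone. Summed, Gabrb2 had a higher mean than Gabra5 in hypothalamus, with overlapping ranges. Adding FPKM of loci is only approximate where their lengths differ, and lengths were not given. What caused the split was not tested, and annotation and strand setting are not given in the sources used here. Of the other 6 subunits, Gabra2 had a second locus in hippocampus, at no more than 0.715 FPKM, and the rest had 1 locus per table.

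**Figure D2:**
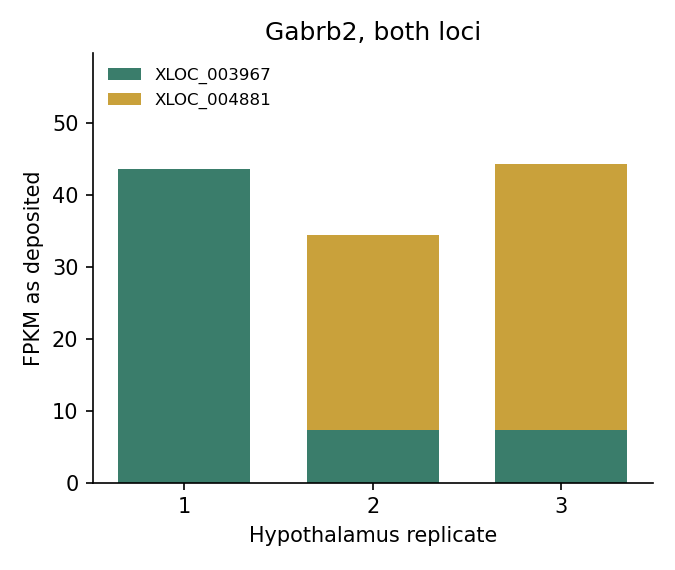
FPKM as deposited of the loci of Gabrb2 in the 3 hypothalamus libraries, stacked, with colour for the locus. In replicate 1, Gabrb2 is found at XLOC_003967 only, while the sums over both loci range from 34.5 to 44.3 FPKM.

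The tissues were then set side by side. Each tissue has its own table, and locus numbers are not shared, so tissue and table cannot be told apart. No test was made across the tables, and an exact two-sided rank-sum test of 4 against 3 libraries could not go below p = 0.0571. For this purpose the FPKM of symbols found in both tables were scaled to add up to 1000000 in each library. A gene was called when its values did not overlap between the tissues and its means of log2(value + 1) differed by at least 2-fold.

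Gabrd, Gabra2 and Gabra5 were called higher in hippocampus, and none of the 7 was called higher in hypothalamus. Symbols were compared where either tissue averaged 1 FPKM or more, and of these 10736 symbols 14.5% were called higher in hippocampus and 13.4% in hypothalamus. Unscaled FPKM moved the hippocampal share of all calls from 52.0% to 33.8%, and the median difference of all symbols from 0.05 to −0.21 on the log2 scale. The median difference of the 7 subunits was 1.21 on that scale after rescaling, with Gabrb2 at its higher locus, and 0.91 with loci summed. With unscaled FPKM, Gabrd and Gabra2 were still called and Gabra5 was not, while 8.64% of compared symbols were called higher in hippocampus. Of 5 neuronal markers, Syt1 and Snap25 were also called higher in hippocampus, at 1.64 and 1.15 on the log2 scale, and Tubb3 was called higher in hypothalamus, at −1.65. Rbfox3 differed by 0.79, and Eno2 overlapped at the locus read and was called higher in hippocampus, at 1.76, with loci summed. Summed neuronal markers read 1188 to 1841 FPKM in hippocampus and 935 to 1214 FPKM in hypothalamus as deposited. The part of neuronal content in the subunit differences was not tested.

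Gabrd showed the largest difference of the 7, at 3.65 on the log2(value + 1) scale. Its rescaled means were 45.0 in hippocampus and 3.47 in hypothalamus, a ratio of 12.98. Hypothalamus replicate 1 set the size of this ratio, which was 31.9 without it, against a hypothalamic mean of 1.41, and 9.70 to 13.6 without any other single library. Without replicate 1 of both tissues the difference was 4.25, and over the 5 scalings and pseudocounts tried it was between 2.64 and 4.13. The ratio of Gabrd to Gabra4, genes whose subunits assemble together outside synapses, does not depend on library scaling. It was 0.901, 0.772, 0.861 and 0.456 in hippocampus replicates 1 to 4 and 0.153, 0.0449 and 0.0666 in hypothalamus replicates 1 to 3. Every hippocampal ratio thus exceeded every hypothalamic one, with replicate 4 the lowest of the hippocampal ones.

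Gabra2 differed by 1.86 on the log2 scale, with rescaled means of 174 and 47.3. Gabra5 differed by 1.21, with rescaled means of 213 and 89.3, and by 0.90 with FPKM as deposited. Gabra4 differed by 0.95, just under the 2-fold limit, and its tissues did not overlap, although its highest hypothalamic value of 49.6 lay next to the lowest hippocampal one of 50.8. It was called, at 1.27, without hypothalamus replicate 1, and also without hippocampus replicate 1 or 3. With FPKM as deposited or scaled by the upper quartile it overlapped between tissues. Altogether 4 of the 7 subunits had all hippocampus libraries above all hypothalamus libraries, against 28.2% of compared symbols.

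Gabrb1, Gabrb2 and Gabra3 overlapped between the tissues, while 52.6% of compared symbols did not. Gabra3 read 41.7 to 64.5 rescaled FPKM in hippocampus and 52.2 to 59.97 in hypothalamus, a difference of −0.12 on the log2 scale. Without hippocampus replicate 4, every hypothalamus library lay above every hippocampus library, at −0.24. Gabrb1 read 35.4 to 46.2 and 43.9 to 66.4, a difference of −0.31, and with FPKM as deposited or scaled by the upper quartile, or without hippocampus replicate 2, all hypothalamus libraries lay higher. For Gabrb2 the locus decided the value. Its difference was 2.05 at the locus with the higher mean, 1.19 at the other hypothalamic locus, −0.42 with loci summed and 0.08 without replicate 1 of both tissues, and the tissues overlapped in all 4 versions. No direction can be given for Gabrb2.

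**Figure D3:**
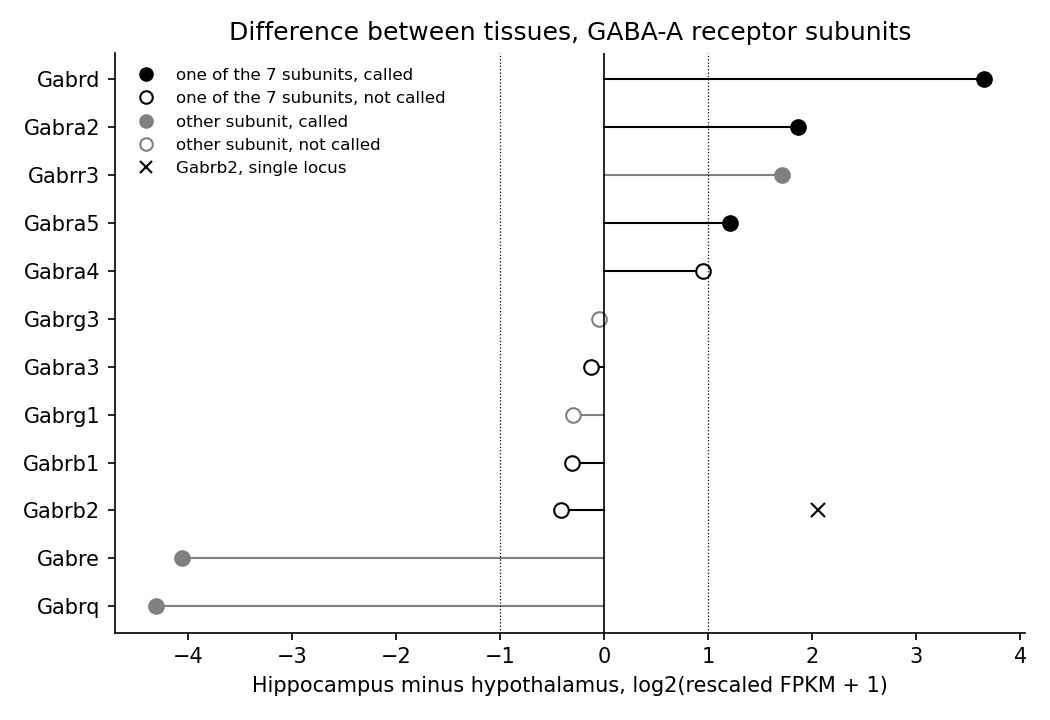
Hippocampus minus hypothalamus difference in mean log2(rescaled FPKM + 1) for the 7 GABA-A receptor subunits examined (black) and 5 other subunit genes (grey), with filled points for called genes and dotted lines at 2-fold. Gabrd lies farthest right at 3.65 and Gabrq farthest left at −4.31; the circle of Gabrb2 is for summed loci and the cross for its single locus.

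Shares among these 4 alpha subunits were computed within each library, where scaling has no part. Of the summed FPKM of Gabra2 to Gabra5, Gabra5 took 42.3% ± 2.35 in hippocampus (SD, n = 4) and 39.96% ± 3.55 in hypothalamus (SD, n = 3), and the tissues overlapped. The tissues parted in Gabra2 and Gabra3. Gabra2 took 32.2% to 36.6% in hippocampus and 18.5% to 23.2% in hypothalamus. Gabra3 took 9.52% to 11.8% in hippocampus and 22.3% to 26.4% in hypothalamus. Gabra4 took 12.6% ± 0.324 and 14.4% ± 3.55, with hypothalamus replicate 1 highest at 18.5% and the other 2 libraries at 12.2% and 12.4%. The ratio of Gabra2 to Gabra5 ran from 0.729 to 0.929 in hippocampus and from 0.435 to 0.647 in hypothalamus.

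**Figure D4:**
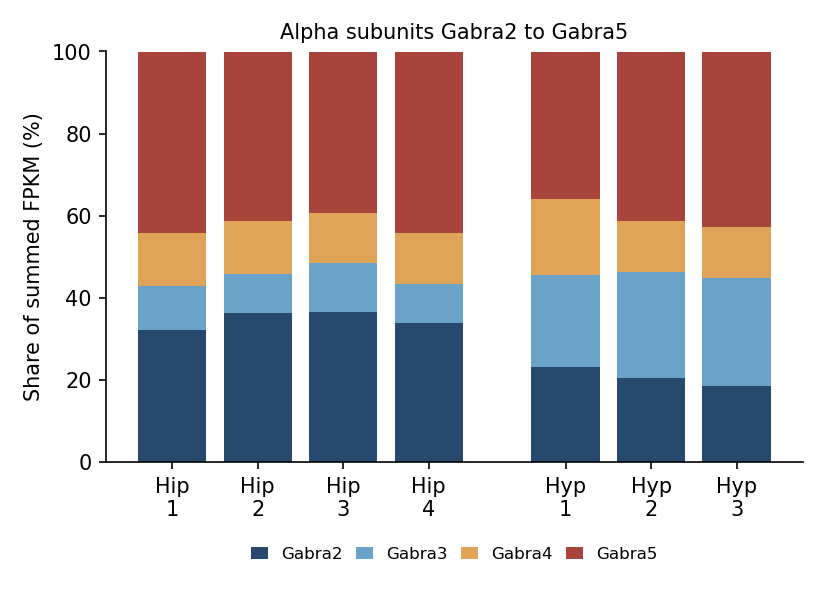
Share of each gene (%) in the summed FPKM of Gabra2 to Gabra5, 1 bar per library, Hip for DHA hippocampus and Hyp for DHA hypothalamus, numbered by replicate. Gabra3 takes 9.52% to 11.8% in hippocampus and 22.3% to 26.4% in hypothalamus, and Gabra2 takes 32.2% to 36.6% and 18.5% to 23.2%.

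Libraries of one tissue differed in a shared way. In hippocampus, Gabra2, Gabra3, Gabra4, Gabra5 and Gabrb2 were each highest in replicate 4, at 126% to 141% of their tissue means. Gabrb1 was highest in replicate 2, as was Gabrd, which was lowest in replicate 4 at 86.6% of its mean. Of all compared symbols, 29.6%, 17.9%, 19.9% and 32.4% were highest in hippocampus replicates 1 to 4.
Neuronal markers moved unequally with this library. Syt1 and Snap25, genes of the synaptic vesicle release machinery, were highest in replicate 4 at 825 and 889 FPKM, whereas Rbfox3, Eno2 and Tubb3 were lowest there. Syt1, Snap25 and Eno2 had 2 hippocampal loci each and were read only at the locus with the higher mean. Of 5 interneuron markers, 4 were lowest in replicate 4 and Npy was listed at 0 in all libraries. Summed interneuron markers read 208 FPKM there and 262 to 330 in the others. The part of these differences in the subunit values was not tested.

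In hypothalamus, replicate 1 was highest for Gabra2, Gabra3, Gabra4, Gabra5, Gabrb1 and Gabrd, as were 44.2% of all compared symbols, against 20.7% in replicate 2 and 34.9% in replicate 3. These replicate 1 levels ran from 106% of the tissue mean for Gabra3 to 217% for Gabrd. Gabrb2 with loci summed was highest in replicate 3. Of 5 thalamic markers, 3 were highest in hypothalamus replicate 1 (Tcf7l2, Prkcd and Gbx2), and the summed level was 68.8 FPKM there against 52.4 and 38.3 in the others. Tcf7l2 read 17.01 FPKM in replicate 1 against 9.03 and 9.43, Prkcd 31.5 against 16.5 and 8.27, and Gbx2 4.58 against 0.531 and 1.57. The other 2 went differently. Rgs16 was lowest in replicate 1, at 9.04 against 18.45 and 13.8 FPKM, and Lef1 was highest in replicate 2, at 7.86 FPKM against 6.64 in replicate 1 and 5.31 in replicate 3. Gabra4 and Gabrd are genes that thalamic relay neurons are also known to express. The part of these markers in the replicate 1 values was not tested.

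**Figure D5:**
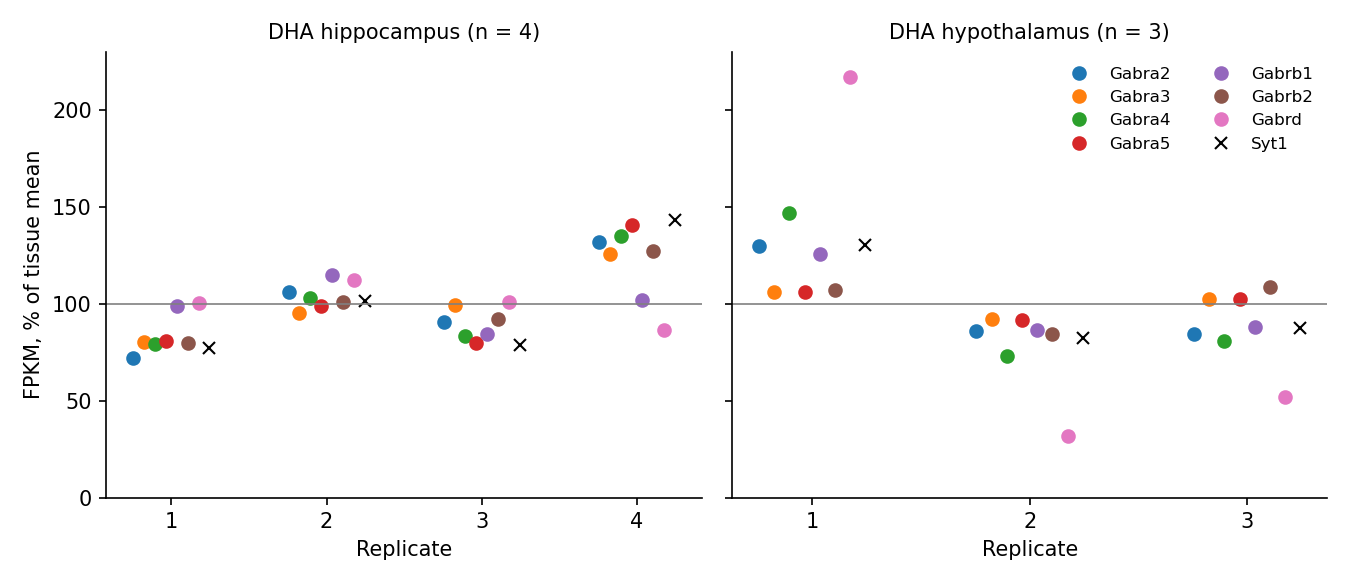
FPKM of each of the 7 subunits in every library as a percentage of its own tissue mean, with Syt1 as a neuronal marker (crosses) and Gabrb2 as the sum of loci; the grey line is the tissue mean. In hippocampus replicate 4, 5 of the 7 subunits lie at 126% to 141%, and in hypothalamus replicate 1 Gabrd lies at 217%.

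The genes with the most similar profiles over the 7 libraries were found by the root mean square distance between gene-centred log2(rescaled value + 1), among single-locus genes. For Gabra2 these were Ssx2ip at 0.0594 and Cyld at 0.0684, and for Gabra5 Nucks1 at 0.0773 and Vopp1 at 0.0913. Tbl1x was nearest to Gabra3 at 0.0381, Hnrnpa1 to Gabra4 at 0.0754 and Vstm5 to Gabrb1 at 0.066. Second in order were Tmem170a at 0.0787, Lmbrd2 at 0.0762 and Commd1 at 0.0922. Gabrd had no such near profile. Nkiras1 came first at 0.236, with 17.2, 2.84 and 4.16 FPKM in the hypothalamus libraries, and Lmo7 second at 0.405. Gabrb2 at its single locus was nearest to Camta1 at 0.984 and Dtx3 at 1.12, both of them lowest in hypothalamus replicate 1. All distances share the same 7 libraries, and candidates numbered at least 8284.

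Of 9 other subunit genes listed, 5 could be compared. Gabrr3 was called higher in hippocampus, where 14.5% of all compared symbols were, and Gabrq and Gabre in hypothalamus, where 13.4% were. Each of the 3 reached the 1 FPKM needed for comparison only in the tissue where it was higher. Gabrq and Gabre encode the theta and epsilon subunits, known from hypothalamic and monoaminergic neurons. Gabrq read 15.9, 13.8 and 17.2 FPKM in hypothalamus and at most 0.548 FPKM in hippocampus. Gabre read 5.83, 10.2 and 12.6 FPKM in hypothalamus and at most 0.127 FPKM in hippocampus. These genes lie near Gabra3 on chromosome X, while Gabra3 itself overlapped between tissues. Gabrg1 and Gabrg3 overlapped between tissues. Gabrr3 was low, at 1.03 ± 0.411 FPKM in hippocampus (SD, n = 4) at the locus with the higher mean. Its call at that locus rested on hippocampus replicate 4, at 1.64 FPKM against 0.796 to 0.846 in the others. Without that library the mean there was 0.821 FPKM, too low to be compared, although the tissues still did not overlap. Gabrr3 had a second hippocampal locus, and summed it read 1.001, 1.27, 1.07 and 2.01 FPKM in replicates 1 to 4, each above the 1 FPKM limit. Gabra6, known from cerebellar granule cells, was at most 0.251 FPKM in hippocampus and listed at 0 in hypothalamus.

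Neighbouring subunit genes did not share 1 tissue pattern. In the RefSeq gene order, Gabrb1 adjoins Gabra4, and Gabra2 adjoins Gabrg1, with Cox7b2 between the pairs. Gabra4 and Gabra2 lay higher in all hippocampus libraries, and Gabrb1 and Gabrg1 overlapped between tissues. Gabra5 lies next to Gabrg3. Gabra5 was called higher in hippocampus and Gabrg3 was not, at 2.01 ± 0.41 FPKM in hippocampus (SD, n = 4) and 2.55 ± 0.309 in hypothalamus (SD, n = 3). Among windows of these other subunits, Gabrg3 held 33 CpG, as many as Gabra4, and Gabre and Gabrq held 20 and 17.

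Partner genes of the receptor were taken by list. Of 8 compared genes of the inhibitory postsynaptic scaffold, 4 were called higher in hippocampus and none in hypothalamus, against 14.5% and 13.4% of all compared symbols, with a median difference of 0.97 on the log2 scale against 0.05 for all symbols. Nlgn2, the adhesion molecule of inhibitory synapses, read 44.6 to 60.4 FPKM in hippocampus and 0.456 to 1.87 in hypothalamus. Slitrk3, Lhfpl4 and Insyn1 were the others called. Gphn, the scaffold protein gephyrin, lay higher in every hippocampus library but differed by 0.75 only.

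Genes of receptor assembly and trafficking went both ways. Of 13 compared, 2 were called higher in hippocampus, Shisa7 and Gabarapl2, a share near the 14.5% of all symbols, and none in hypothalamus. Counted without the 2-fold limit, 7 had all hippocampus libraries above all hypothalamus libraries (Nsf, Plcl1, Ubqln1, Trak1 and Trak2 besides those called), against 28.2% of compared symbols. The reverse held for 4 (Clptm1, Gabarap, Gabarapl1 and Zdhhc3), against 24.4% of symbols, each with less than a 2-fold difference, as in 11% of symbols. With loci summed, Nsf overlapped between tissues. Gabarap, named for its binding to the receptor, read 441 ± 24.8 FPKM in hypothalamus (SD, n = 3) and 200.3 ± 4.16 in hippocampus (SD, n = 4), a difference of −0.84 on the rescaled log2 scale.
The genes that make and clear GABA were examined as a further list. Of 7 compared, 2 were called higher in hypothalamus and none in hippocampus, against 13.4% and 14.5% of all compared symbols, and the median difference was −0.72 on the log2 scale. Gad2, a GABA-synthesizing enzyme, read 202, 146 and 163 FPKM in hypothalamus and 36.8 to 43.9 FPKM in hippocampus. Slc6a11, a GABA transporter of astrocytes, read 224, 293 and 322 FPKM in hypothalamus and 31.0 to 40.5 FPKM in hippocampus. Of 5 astrocyte markers, 3 were called higher in hypothalamus, and their summed level was 842 to 1235 FPKM there and 440 to 619.5 in hippocampus. The part of astrocyte content in Slc6a11 was not tested.

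Of 4 compared GABA-B receptor genes, Kctd16 was called higher in hippocampus, as were 14.5% of all symbols, and the rest overlapped, while 52.6% of all symbols did not. Of 4 compared genes of chloride and bicarbonate handling, 1 was called higher in hippocampus at the locus with the higher mean, Car7, and 3 were with loci summed, Car7, Slc12a5 and Slc12a2. Of all compared symbols, 14.5% were called higher in hippocampus under either reading of loci. Slc12a5, the chloride exporter of mature neurons, had 2 loci in the hippocampal table. The locus with the higher mean read 49.9, 339, 260 and 528 FPKM in replicates 1 to 4 and overlapped with hypothalamus. The other locus read 182, 63.1, 58.3 and 50.8 FPKM, highest where the first was lowest. Summed, Slc12a5 read 232 to 579 FPKM in hippocampus and 67.7 to 84.5 FPKM at its 1 hypothalamic locus, without overlap, a difference of 2.53 on the rescaled log2 scale against 1.85 at the single locus. Slc12a2, the chloride importer, also had 2 hippocampal loci, and its difference was −0.34 at 1 locus and 1.68 summed. Of 3 compared genes of neurosteroid synthesis, none was called at the locus with the higher mean, and with loci summed Tspo was called higher in hypothalamus, at −1.06, as were 14.1% of symbols.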

How the data were processed

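Libraries were made from poly-A selected RNA, per the labels' protocols. The deposited values are FPKM, computed by the authors, in 1 table per tissue. The submitters' processing notes name TopHat, TopHat2, Bowtie, Bowtie2, Cufflinks, Cuffdiff and the build rn5 without roles. Annotation, strand setting and library scaling are not given in the sources used here. Depth is unknown, so no counting interval was computed.

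A locus was dropped where its status was not OK in some library of the tissue (86 hippocampal and 24 hypothalamic loci), and each symbol was read at its locus of highest mean. Across tissues, libraries were rescaled to a common sum and compared as log2(value + 1), which understates changes of low genes. Because the tables may be normalized separately, no test was made between them. The calling code was tested on simulated data. Python 3.11.15 and pandas 2.3.3 were used. Named genes were the 7 subunits, the listed partner genes and the 2 nearest profiles per subunit, among symbols with a mean of at least 5 rescaled FPKM in a tissue. Subunits, gene lists and alternatives were chosen with earlier results of these data known. Some genes of the receptor and marker lists are not reported here.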

Additional observations from a re-analysis of the deposited data

Results flagged for a closer look

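Among 20 values tested in the 4 hippocampus libraries (subunit levels, shares and ratios), 2 had a library standing apart by Dixon's ratio of the gap to the nearest library over the whole range, where chance gives 1. Gabra6 was highest in replicate 2, at 0.251 FPKM against 0.0573 to 0.0818 in the others, with a ratio of 0.874. Gabrp was not tested, since it was listed at 0 in 3 of the 4 libraries, which fixes the ratio whatever the fourth value is. Gabrr3 was highest in replicate 4, at 1.64 FPKM against 0.796 to 0.846 in the others, with a ratio of 0.94. This flag is for the hippocampal locus with the higher mean only. Summed over loci, Gabrr3 read 1.001, 1.27, 1.07 and 2.01 FPKM, a less isolated replicate 4 whose ratio was not computed. None of the 7 subunits examined in depth was flagged.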

How the results depend on the processing

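No paired analysis was possible because the results come from no test and the labels do not tie libraries that share a number to one animal. Symbols called higher in hippocampus numbered 1560, and 928 with FPKM as deposited. A limit of 1.5-fold gave 2509 and 2210 symbols, against 1560 and 1439 at 2-fold. The log2 ratio of Gabrb1 to Gabrb2 differed by −0.11 between tissues, without hypothalamus replicate 1, whose Gabrb2 locus is at 0. Leaving out single libraries gave −1.21 to 0.000267, and the locus taken changed without hypothalamus replicate 2 or 3. With loci summed, which keeps hypothalamus replicate 1, the difference was 0.07. Without single libraries, 3 to 4 of the 7 subunits were called, all higher in hippocampus, against 13.8% to 16.8% of compared symbols. The setting at the other Gabrb2 locus, the Gabrd ratio and Gabrr3 without single libraries, and loci summed for partner and marker genes were chosen after values were seen.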
